A study of Homo sapiens with 12 samples.

Results

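IFIT1, IFIT3, IFI44L and RSAD2 are antiviral effector genes that interferon switches on, and they are 4 of the 14884 genes measured here on arrays of Ishikawa cells, a human endometrial adenocarcinoma line. The 4 genes were picked with their differences between the labelled groups on these arrays known. Those differences are therefore given as a description, with no p-value. Where a gene has several probe sets, the brightest on average was to be used, but each of the 4 had 1 probe set. Signals are RMA values on the log2 scale, so a difference of 1 is a 2-fold change.

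The series holds 12 arrays of total RNA in 4 groups of 3, and its title concerns a feedback between MOF and ERα in endometrial cancer. The gene KAT8 encodes MOF, which acetylates histone H4, and the gene ESR1 encodes ERα, an oestrogen receptor. The groups are control cells labelled ERα(-), shMOF cells labelled ERα(-), control cells labelled ERα(+) and shMOF cells labelled ERα(+). All 4 groups are Ishikawa cells. The hairpin sequence behind shMOF, the number of clones, what makes a culture ERα(-) or ERα(+), any hormone given and where the replicates came from were looked for and are not given in the sources used. The spread behind every p-value is thus that between these arrays, and it may be technical.

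Type I interferons bind a receptor at the cell surface, and the kinases JAK1 and TYK2 then pass the signal on. A transcription factor complex that includes IRF9 binds interferon-stimulated response elements (ISRE) in the promoters of interferon-stimulated genes. Many of the same genes can also be switched on by IRF3 after the RNA sensors RIG-I and MDA5 detect double-stranded or viral RNA. IFIT1 and IFIT3 bind each other, and IFIT1 recognises RNA whose cap lacks the methylation that marks the cell's own messenger RNA. RSAD2 encodes viperin, a radical SAM enzyme that makes a chain-terminating nucleotide. IFI44L is a strongly interferon-induced gene whose molecular function is less well known. Fewer cells with a transcript and less transcript per cell cannot be told apart in such bulk RNA.

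The sequences before the start sites are shown because the 4 genes lie at 3 loci and vary together across the arrays. They are the 250 bases before a start site, from RefSeq on GRCh38.p14, all on the + strand and written 5′ to 3′. Capitals mark matches to GAAANNGAAA, an ISRE-like word, on either strand. The windows are chr10:89392373-89392622 for IFIT1, chr10:89327747-89327996 for IFIT3, chr1:78620198-78620447 for IFI44L and chr2:6877527-6877776 for RSAD2.
IFIT1: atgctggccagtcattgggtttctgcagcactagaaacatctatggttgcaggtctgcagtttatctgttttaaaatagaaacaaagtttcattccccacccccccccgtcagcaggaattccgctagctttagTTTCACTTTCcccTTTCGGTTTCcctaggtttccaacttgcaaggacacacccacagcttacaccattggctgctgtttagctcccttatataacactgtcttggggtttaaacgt
IFIT3: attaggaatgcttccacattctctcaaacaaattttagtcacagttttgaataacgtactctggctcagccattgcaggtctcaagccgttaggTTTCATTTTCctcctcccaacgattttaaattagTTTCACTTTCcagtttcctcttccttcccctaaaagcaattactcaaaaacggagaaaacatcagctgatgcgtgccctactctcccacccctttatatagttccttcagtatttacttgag
IFI44L: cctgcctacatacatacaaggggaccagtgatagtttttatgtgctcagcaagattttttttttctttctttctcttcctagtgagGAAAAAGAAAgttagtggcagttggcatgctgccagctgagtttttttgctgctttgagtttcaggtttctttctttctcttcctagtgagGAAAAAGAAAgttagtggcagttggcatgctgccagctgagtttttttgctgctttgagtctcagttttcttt
RSAD2: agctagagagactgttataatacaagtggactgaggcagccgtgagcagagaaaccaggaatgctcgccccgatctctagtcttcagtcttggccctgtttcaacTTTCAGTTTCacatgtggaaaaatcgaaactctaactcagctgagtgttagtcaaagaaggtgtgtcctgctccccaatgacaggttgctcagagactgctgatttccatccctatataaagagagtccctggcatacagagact

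IFIT1 held 2 matches, which began 116 and 103 bases before the start site. IFIT3 also held 2, at 156 and 122 bases before it. IFI44L held 2 identical matches at 164 and 73 bases before its start, inside a stretch of 85 bases that occurs again 91 bases further on. RSAD2 held 1 match, at 145 bases before a start site at position 6877777, which lies inside the gene. The window of the RSAD2 start at 6865885 held 0 matches, and the window of a further IFIT3 start held 2. All 4 genes thus had a match in at least 1 of their windows, and 5 of their 6 windows of 300 bases (250 before and 50 after a start) held it. Among 35116 such windows of 27305 genes, 3.57% held it. A match to letters is a description and not a bound site.

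The genes named in the labels did not follow them. Among ERα(-) arrays, KAT8 lay between 6.68 and 6.87 in control and between 6.72 and 6.78 in shMOF cells. Among ERα(+) arrays it lay between 6.60 and 6.81 in control and between 6.66 and 7.02 in shMOF cells. Its shMOF minus control difference was -0.02 in ERα(-) and 0.04 in ERα(+), each with an SE of 0.13. ESR1 was dim, between 4.12 and 4.65 on all 12 arrays against array medians of 4.53 to 4.59, so small differences in it say little about the receptor. Its ERα(+) minus ERα(-) difference was 0.18 in control arrays, which overlapped, and -0.15 in shMOF arrays (SE 0.12). In shMOF cells the ERα(+) arrays (4.27 to 4.28) lay below all ERα(-) arrays (4.34 to 4.52), opposite to the label, and also below all control ERα(+) arrays (4.32 to 4.65). Of all genes, 5.70% and 14.1% were lower without overlap in these comparisons. Groups are therefore called by their labels throughout. Over genes, arrays correlated at r between 0.965 and 0.994, and 3 of the 12 arrays had their closest partner in their own group. Of the epithelial markers, 6 of 9 were measured, and their mean per array lay between 8.63 and 9.17, from KRT8 at 5.99 to 6.94 and CLDN4 at 6.11 to 6.89 up to EPCAM at 11.4 to 11.6. The mean of 2 of 8 stromal markers (DCN and LUM) lay between 1.97 and 2.32, and that of 3 of 5 endothelial markers between 4.00 and 4.44. The mean of 5 of 10 immune markers lay between 4.60 and 4.79 in shMOF ERα(+) arrays and between 4.85 and 5.16 in control ERα(+) arrays. The epithelial mean lay between 8.632 and 8.899 in shMOF ERα(+) arrays and between 8.896 and 9.174 in control ERα(+) arrays, so these groups overlapped slightly. Median differences for shMOF in ERα(+) were -0.25 for immune, -0.23 for epithelial, 0.05 for stromal and 0.05 for endothelial markers. Among the 5 immune markers, CD14 lay between 2.96 and 3.78 and TYROBP between 3.42 and 4.402. CSF1R lay between 4.68 and 5.46, NKG7 between 4.74 and 5.24, and CD68, a lysosomal protein gene, between 6.36 and 7.70. Levels of different probe sets are not comparable, so these ranges do not rank the markers. Whether admixture of other cells bears on the interferon genes was not tested.

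IFI44L (chromosome 1, 78620448 to 78646145) spanned the widest range of the 4 genes. In control cells its log2 signal was 5.62, 5.27 and 5.31 on the ERα(-) arrays and 4.26, 3.97 and 4.29 on the ERα(+) arrays (replicates 1 to 3). In shMOF cells it was 4.38, 5.42 and 4.41 with ERα(-) and 5.35, 6.17 and 6.0 with ERα(+). The 3 control ERα(+) arrays were the lowest of the 12. They and shMOF ERα(-) replicates 1 and 3 lay below the array medians of 4.53 to 4.59. Differences from these arrays thus start from dim signals. In shMOF ERα(-), replicate 2 lay about 1 log2 unit above the other two. Group means were 5.40 ± 0.19, 4.17 ± 0.18, 4.74 ± 0.60 and 5.84 ± 0.43 (SD, n = 3) in the order given. In ERα(+), the shMOF arrays were higher than control by 1.66 ± 0.26 (SE), a 3.17-fold difference, and the groups did not overlap. In ERα(-), the sign was opposite, at -0.66 ± 0.26, and the groups overlapped. That value was -1.01 without shMOF ERα(-) replicate 2.

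IFIT1 (chromosome 10, 89392623 to 89406487) had the same order of group means. Control cells read 6.27, 6.43 and 6.19 with ERα(-) and 5.48, 5.67 and 5.54 with ERα(+). The shMOF cells read 5.96, 6.43 and 5.81 with ERα(-) and 6.18, 6.81 and 6.91 with ERα(+). Again all 3 control ERα(+) arrays were below the other 9, and shMOF ERα(+) replicate 1 stood at the level of the lowest control ERα(-) array. The means were 6.30 ± 0.12, 5.56 ± 0.09, 6.07 ± 0.33 and 6.63 ± 0.39 (SD, n = 3), in the order given. The shMOF minus control difference was 1.07 ± 0.19 (SE, 2.10-fold) in ERα(+) and -0.23 ± 0.19 in ERα(-). The value in ERα(-) was about 1 SE from 0, and leaving out single arrays moved it between -0.41 (without shMOF ERα(-) replicate 2) and -0.10 (without shMOF ERα(-) replicate 3).

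IFIT3 (chromosome 10, 89327997 to 89340968), the partner of IFIT1, was at 5.01, 5.26 and 5.42 on ERα(-) and 4.33, 4.43 and 4.58 on ERα(+) arrays of control cells. Arrays of shMOF cells gave 4.61, 5.03 and 4.56 with ERα(-) and 5.17, 5.37 and 5.56 with ERα(+). Control ERα(+) replicates 1 and 2 lay below the array medians of 4.53 to 4.59. Control ERα(+) replicate 3 and shMOF ERα(-) replicate 3 lay within that range, so the gene was dim on these arrays. The shMOF ERα(+) arrays lay above every array of both control ERα(+) and shMOF ERα(-), but within reach of control ERα(-). The means were 5.23 ± 0.21, 4.45 ± 0.13, 4.73 ± 0.26 and 5.37 ± 0.19 (SD, n = 3), again in the order given. The shMOF minus control difference was 0.92 ± 0.16 (SE, 1.89-fold) in ERα(+) and -0.50 ± 0.16 in ERα(-).

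RSAD2 (chromosome 2, 6865885 to 6898239) was at 5.95, 5.54 and 5.51 in control cells labelled ERα(-) and at 4.72, 4.98 and 5.16 in those labelled ERα(+). In shMOF cells it was at 5.07, 5.36 and 4.84 with ERα(-) and at 5.37, 6.24 and 6.0 with ERα(+). It was the only member whose shMOF and control arrays did not overlap in ERα(-) either, where shMOF was lower. Its 4 means, in that order, were 5.67 ± 0.25, 4.95 ± 0.22, 5.09 ± 0.26 and 5.87 ± 0.45 (SD, n = 3). The shMOF minus control difference was 0.92 ± 0.21 (SE, 1.89-fold) in ERα(+) and -0.58 ± 0.21 in ERα(-).

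**Figure D1:**
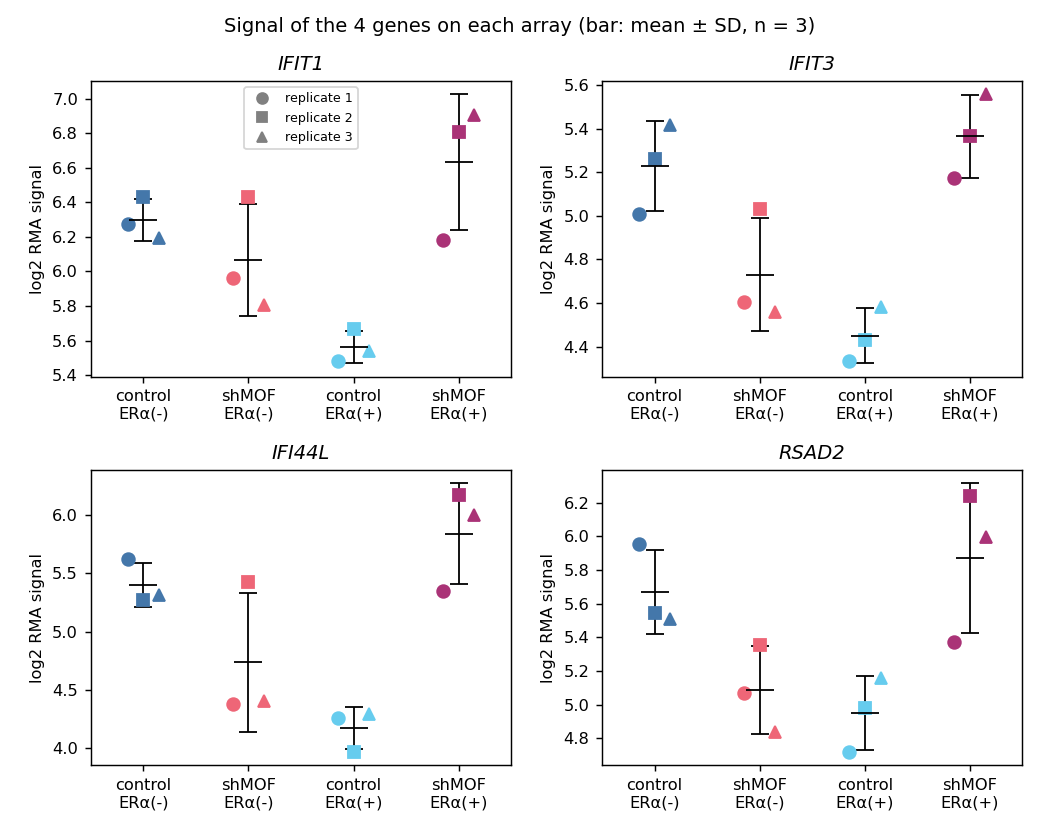
Log2 RMA signal of IFIT1, IFIT3, IFI44L and RSAD2 (y axis, separate scale per gene) on each of the 12 arrays in the 4 labelled groups (x axis), with symbols for replicates 1 to 3 and bars for mean ± SD (n = 3). In each panel control ERα(+) has the lowest mean and shMOF ERα(+) the highest, and shMOF ERα(-) replicate 2 lies above the other two arrays of its group.

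For each of the 4 genes the group means ran from control ERα(+) at the bottom through shMOF ERα(-) and control ERα(-) to shMOF ERα(+) at the top. Neighbours in this order were mostly within reach of each other. Of the 12 neighbouring pairs of groups, 3 did not overlap: control ERα(+) and shMOF ERα(-) for IFIT1 and for IFI44L, and shMOF ERα(-) and control ERα(-) for RSAD2. For no member did control ERα(-) and shMOF ERα(+), the upper pair, separate. The highest array exceeded the lowest 4.59-fold for IFI44L, 2.86-fold for RSAD2, 2.68-fold for IFIT1 and 2.34-fold for IFIT3. Their SDs over the 12 arrays stood at the 99.8, 98.3, 98.0 and 96.5 percentiles of all genes in that order. Between 70.2% (RSAD2) and 83.5% (IFIT3) of each gene's variance lay between groups, against a median of 31.9% over all genes. The percentiles and these shares hold the group differences with which the members were chosen, so nothing is read from them.

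The comparisons share arrays, so their values are set side by side and not counted as repeats. The number of arrays limits the precision, and no gene of the 14884 passed limma's test at a Benjamini-Hochberg adjusted p below 0.05 in any comparison (0% called in each). The smallest adjusted p by limma was 0.265 for shMOF in ERα(-), 0.0988 for the same contrast in ERα(+), 0.319 for the condition in control arrays, and 0.746 in shMOF arrays. For the interaction it was 0.0696 by limma. At an unadjusted p below 0.05, limma gave 711, 2787, 1894, 793 and 2685 genes in that order. Without shMOF ERα(-) replicate 2, calls numbered 5, 30, 4, 11 and 570 in the same order. For shMOF in ERα(+) and the condition in control, that array is in neither group compared and enters only through the spread that all groups share. With array quality weights, calls numbered 645, 1629, 217, 1918 and 3258. The interaction had 11 calls once shMOF ERα(+) replicate 1 was left out and 1 call once control ERα(+) replicate 3 was, and in the latter case shMOF in ERα(+) also had 1.

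Overlap of the arrays was used as the second reading. In ERα(+), all 4 members were higher on every shMOF array than on every control array, a pattern that 12.2% of all genes showed, while 14.1% showed the reverse. In control cells, all 4 were lower on every ERα(+) array than on every ERα(-) array, against 8.92% of all genes, with 10.3% higher. IFI44L was lower there by 1.23 ± 0.26 (SE), IFIT3 by 0.78 ± 0.16, IFIT1 by 0.74 ± 0.19 and RSAD2 by 0.72 ± 0.21. In shMOF cells the sign turned: the ERα(+) minus ERα(-) difference was 1.10 for IFI44L, 0.78 for RSAD2, 0.64 for IFIT3 and 0.57 for IFIT1, with the same SEs. Of these, IFIT3 and RSAD2 did not overlap, against 3.80% of all genes higher and 5.70% lower. In the shMOF comparison within ERα(-), RSAD2 alone did not overlap and was lower, against 4.66% of all genes lower and 4.11% higher. Since the members were chosen on these contrasts, the shares are set beside the counts and nothing is read from them.

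The interaction subtracts the shMOF difference in ERα(-) from the one in ERα(+), and it was 2.33 ± 0.37 (SE) for IFI44L, 1.5 ± 0.30 for RSAD2, 1.42 ± 0.22 for IFIT3 and 1.30 ± 0.27 for IFIT1. For IFIT1 most of it comes from ERα(+), where the shMOF difference was 1.07 against -0.23 in ERα(-). In ERα(-) shMOF and control arrays overlapped for all members but RSAD2. The median of all genes in the same contrast was -0.03. No sign of any member's difference turned under any of the 20 alternative settings tried, though several of these could not change a given difference.

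**Figure D2:**
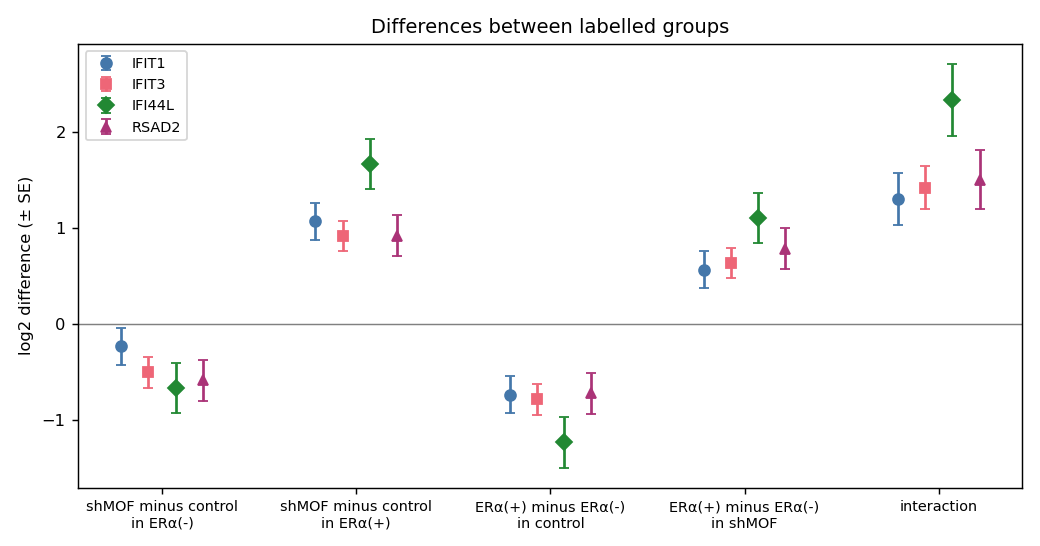
Log2 differences between labelled groups (y axis) with bars of ± 1 SE from the limma fit, for the 4 group comparisons and the interaction (x axis), in IFIT1, IFIT3, IFI44L and RSAD2. All 4 genes lie below 0 for shMOF in ERα(-) and for the condition in control arrays, above 0 in the other three columns, and IFI44L is farthest from 0 in each.

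The arrays also differed along an axis that separated some of the labelled groups. The first principal component over all genes outside the interferon lists held 36.7% of the variance. Its scores, in SD units, ran from -1.89 to -0.20 in control ERα(+) and from -1.28 to 1.04 in shMOF ERα(-). They ran from 0.20 to 0.68 in control ERα(-) and from 0.25 to 1.70 in shMOF ERα(+). Control and shMOF thus did not overlap on the component in ERα(+), and neither did ERα(+) and ERα(-) in control cells. The sign of the component is arbitrary and was set to run with the members. The members followed the component over the 12 arrays, with r of 0.82 for IFI44L, 0.81 for IFIT1, 0.75 for IFIT3 and 0.71 for RSAD2. After the group means were removed, r was 0.61, 0.58, 0.40 and 0.36 in that order. With the component as a covariate, the shMOF difference in ERα(+) was 1.16 for IFI44L, 0.74 for IFIT1, 0.74 for IFIT3 and 0.69 for RSAD2. The interaction of IFIT1 was then 0.86 against 1.30. Since the component itself differs between labelled groups, the covariate can take up part of the difference between labels. Without the arrays at the ends of the component (control ERα(+) replicate 3 and shMOF ERα(+) replicate 2), the same members had groups without overlap. The shares of all genes without overlap were then 18.9% higher and 20.4% lower for shMOF in ERα(+), 13.2% and 14.04% for the condition in control, and 6.21% and 8.63% for the condition in shMOF arrays. What sets this component was not tested.

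**Figure D3:**
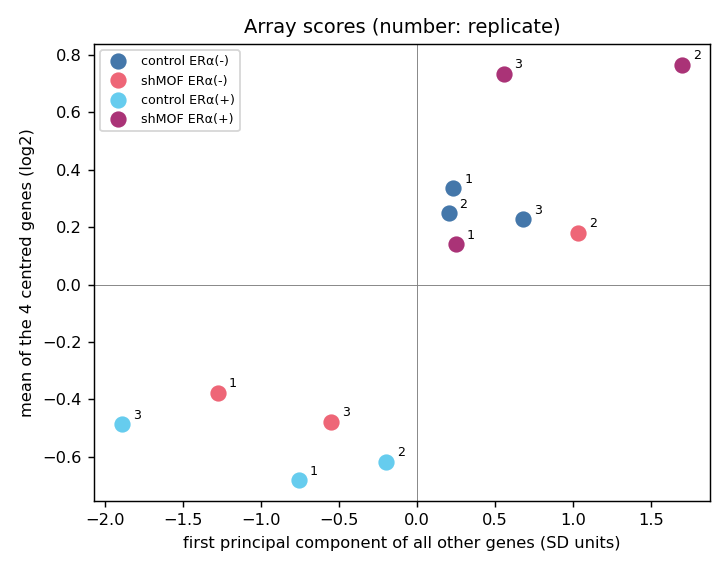
Mean of the 4 genes, each centred on its own mean over the 12 arrays (y axis, log2), against the score of the array on the first principal component of genes outside the interferon lists (x axis, SD units), coloured by group, with replicate numbers. The 3 control ERα(+) arrays and shMOF ERα(-) replicates 1 and 3 are below 0 on both axes, and the other 7 arrays, shMOF ERα(-) replicate 2 among them, are above 0 on both.

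Co-variation was strong over the 12 arrays as deposited, with r from 0.85 (IFIT3 with RSAD2) to 0.94 (IFIT1 with IFI44L) and rho from 0.80 to 0.90, but these values hold the group differences that chose the genes. Deviations of each array from its own group mean do not. On these, IFI44L and RSAD2 had r = 0.79 and rho = 0.81 (two-sided exact permutation p = 0.0154, adjusted over the 6 pairs 0.0926). IFIT1 with IFI44L also had r = 0.79 (rho = 0.76, exact permutation p = 0.0995, adjusted 0.149). IFIT1 with RSAD2 had r = 0.76 (rho = 0.76, exact permutation p = 0.0471, adjusted 0.127). The remaining pairs all include IFIT3. It had r = 0.70 with IFIT1 (rho = 0.62, exact permutation p = 0.0633, adjusted 0.127), 0.59 with IFI44L (rho = 0.51, p = 0.150, adjusted 0.181) and 0.41 with RSAD2 (rho = 0.32, p = 0.267, adjusted 0.267). All 6 pairs were positive and 0 of 6 passed after adjustment. The exact p came from 1296 permutations of the arrays within groups.

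The members deviated together on a pair of shMOF arrays. On shMOF ERα(-) replicate 2 the members were above their group mean by 0.69 (IFI44L), 0.37 (IFIT1), 0.30 (IFIT3) and 0.27 (RSAD2). On shMOF ERα(+) replicate 1 they deviated by -0.49, -0.45, -0.19 and -0.50 in the same order. The 4 deviations had 1 sign on 5 of the 12 arrays, all of them shMOF arrays. Without the 2 arrays farthest from the median of the first gene of each pair, r was between 0.49 and 0.71.

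**Figure D4:**
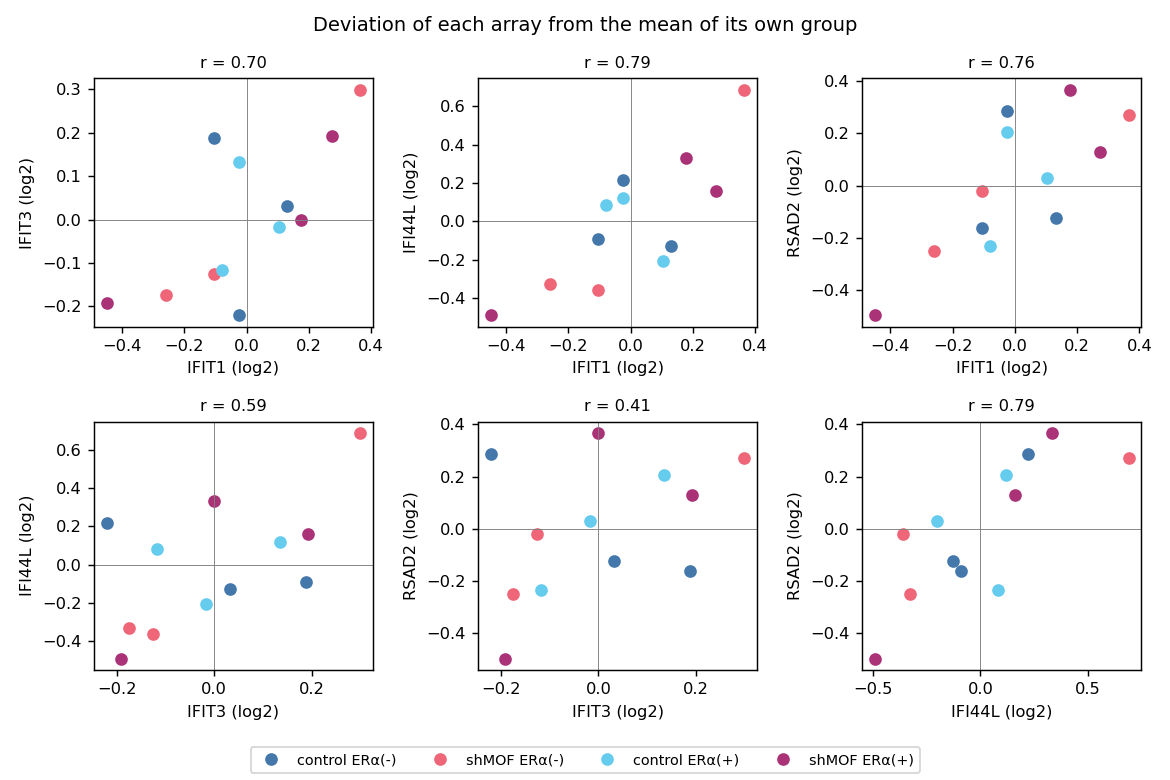
Deviation of each array from the mean of its own group (log2, both axes) for the 6 pairs of the 4 genes, coloured by group, with Pearson r over the 12 arrays above each panel. All r are positive, from 0.41 to 0.79, and the shMOF arrays lie farther out than the control arrays along most diagonals.

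The other genes of the interferon pathway were taken from lists by role. These lists, and that of the locus neighbours, were chosen with earlier results of these data known. The shares of all genes are therefore set beside the counts, here and below, and nothing is read from an excess. Of 96 listed genes, 54 were measured, and 0 of the 54 passed limma's test in any comparison, while 5, 18, 9 and 12 had an unadjusted p below 0.05 in the 4 group comparisons, and 17 did so in the interaction. Without shMOF ERα(-) replicate 2, the calls among them were 4 for shMOF in ERα(+), 1 for the condition in shMOF cells and 8 for the interaction. For shMOF in ERα(+), their median difference was 0.08 against -0.04 over all genes, and 13 were higher and 5 lower without overlap (24.1% and 9.26%, against 12.2% and 14.1% of all genes). Leaving out shMOF ERα(+) replicate 3 gave a median of 0.02, and leaving out control ERα(+) replicate 3 gave 0.16. For the condition in control arrays, 3 were higher and 11 lower without overlap (5.56% and 20.4%, against 10.3% and 8.92% of all genes). The companions thus spread from -0.53 to 1.62 for shMOF in ERα(+), and the members, at 0.92 to 1.66, lie at the upper end.

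**Figure D5:**
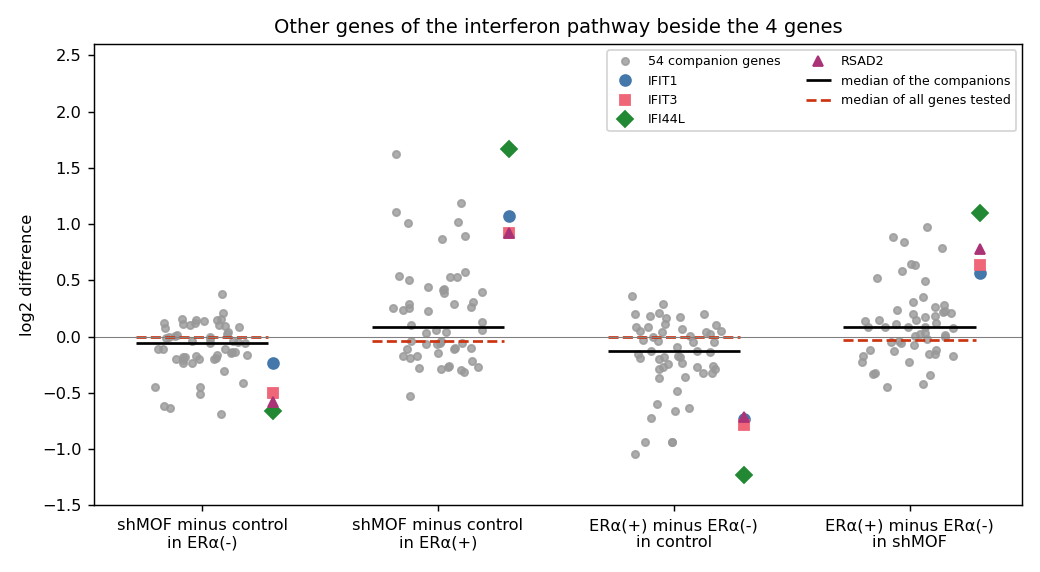
Log2 difference (y axis) in the 4 comparisons of groups (x axis) for the 54 measured companion genes (grey points), their median (black line), the median of all 14884 genes (dashed red line) and the 4 genes IFIT1, IFIT3, IFI44L and RSAD2. The companions centre close to 0 with a tail towards the members, which reaches 1.62 for shMOF in ERα(+) and -1.04 for the condition in control arrays.

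None of the 9 listed interferon ligand genes was among the named probe sets, so ligands were not analysed here. Of 12 receptor and JAK-STAT genes, 6 were measured, with a median shMOF difference of -0.08 in ERα(-) and 0.30 in ERα(+). JAK2, a kinase of the interferon gamma receptor, differed by 0.44 ± 0.19 (SE) in ERα(+), and JAK1, shared by type I and gamma receptors, by 0.38 ± 0.18. IFNGR1, a chain of the interferon gamma receptor, differed by 0.31 ± 0.14 and IRF9 by 0.29 ± 0.14. Control and shMOF arrays overlapped for all 4 of these in both conditions. These 4 had the smallest limma p of the list in any comparison between groups, so their values also picked them. The other measured genes, TYK2 and IFNGR2, had the opposite sign in ERα(+) and were added after their values were seen. TYK2, the other kinase of the type I receptor, was at -0.26 with overlap. IFNGR2, the second chain of the interferon gamma receptor, was at -0.18 and was the only gene of the 6 without overlap there.

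Of 13 sensors and adaptors, 12 were measured, and they divided. IFIH1, RIGI, TBK1 and TLR3 are given because they had the smallest limma p of the list in any comparison between groups. IFIH1, which encodes MDA5, was higher with shMOF in ERα(+) by 1.19 ± 0.24 (SE) and lower in ERα(+) control than in ERα(-) control arrays by 1.04. RIGI, which encodes RIG-I, was higher by 1.01 ± 0.23 and lower by 0.94 in these comparisons. TBK1, the kinase that activates IRF3, differed by 0.53 ± 0.18 and TLR3, an endosomal sensor of double-stranded RNA, by 0.42 ± 0.14 for shMOF in ERα(+). TLR3 was dim, with group means between 2.80 and 3.22 against array medians of 4.53 to 4.59. Over the list, 4 genes were higher and 2 lower without overlap (33.3% and 16.7%, against 12.2% and 14.1% of all genes), and the median was -0.001. Those higher were IFIH1, RIGI, TLR3 and EIF2AK2 (0.39, named after its value was seen), while the TBK1 groups overlapped. Those lower were MAVS (-0.27), the adaptor downstream of RIG-I and MDA5, and IRF3 (-0.27), named after their values were seen.

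Other antiviral effectors were the largest list, with 28 of 39 measured. For shMOF in ERα(+), 9 were higher and 1 was lower without overlap (32.1% and 3.57%, against 12.2% and 14.1% of all genes). For the condition in control arrays 0 were higher and 7 lower (0% and 25%, against 10.3% and 8.92%). SAMD9, an antiviral restriction factor, differed by 1.62 ± 0.32 (SE) and IFI44, the paralogue of IFI44L, by 1.11 ± 0.23 for shMOF in ERα(+). HERC5, the ligase that attaches ISG15 to proteins, differed by 0.86 ± 0.18 and its neighbour HERC6 by 0.53 ± 0.13. Several effectors that interferon also induces showed small differences in the same comparison: MX2 0.04, IFITM3 -0.06, XAF1 0.13, SAMD9L -0.10 and RTP4 -0.11. These 5 were named after their values were seen, and SAMD9, IFI44, HERC5 and HERC6 were picked by the smallest limma p of the list.

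Of 7 negative regulators, 5 were measured, with a median of 0.06 for shMOF in ERα(+). SOCS1 and SOCS3, which block JAK kinases, were at -0.29 and -0.31, while IRF2 was at 0.25 and TRIM21 at 0.23, all with overlapping groups. Of 16 antigen presentation genes, 3 were measured. TAPBP, which helps load peptides on class I molecules, was lower with shMOF in ERα(+) by 0.53 ± 0.20 (SE) without overlap, and IRF1, a regulator of class I genes, was at -0.30. B2M, the light chain of class I molecules, was at -0.03.

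Of 11 listed neighbours of the members on the chromosomes, 8 were measured. The IFIT cluster on chromosome 10 also holds IFIT2 (89302046 to 89309271), at -0.69 ± 0.26 (SE) for shMOF in ERα(-) and 0.89 in ERα(+), and IFIT5 (89414568 to 89420997), at -0.23 ± 0.14 and 0.57. Control and shMOF arrays of IFIT2 and IFIT5 did not overlap in ERα(+). Of the 8 measured neighbours, 3 were higher and 0 lower without overlap there (37.5% and 0%, against 12.2% and 14.1% of all genes). The 3 were IFIT2, IFIT5 and IFI44, which are also counted among the effectors above, so this share is not a separate result. IFIT1B (89378056 to 89385205), which lies between IFIT3 and IFIT1, was at 0.09 and 0.38 with an SE of 0.25, and its group means stayed between 3.41 and 3.80. The flanking gene CH25H was at -0.05 and 0.02. PANK1, which encodes a pantothenate kinase, had the members' signs at a smaller size, at -0.13 ± 0.11 (SE) for shMOF in ERα(-) and 0.13 in ERα(+), and at -0.16 for the condition in control and 0.11 in shMOF arrays. It was lower without overlap for shMOF in ERα(-) and for the condition in control arrays, as were 4.66% and 8.92% of all genes. Beside IFI44L, IFI44 (78649789 to 78664078) followed the members, while PTGFR, a prostaglandin receptor gene, was at -0.01. Beside RSAD2, RNF144A was at -0.06. IFIT genes are similar in sequence, and whether probes of 1 IFIT gene take up RNA of another was not tested.

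Matches to the ISRE-like word were also counted in the companions. Of 53 windows of 41 companions, 45.3% held a match. For shMOF in ERα(+), the 22 companions with a match had a median of 0.25, with 9 higher and 1 lower without overlap. The 19 with windows but no match had a median of 0.13, with 3 higher and 3 lower. The 13 with no window in the table used had a median of -0.06, with 1 higher and 1 lower. Of all genes, 12.2% were higher and 14.1% lower without overlap. For the condition in control arrays the medians were -0.22, -0.05 and -0.13 in that order. The split is a description of these genes: RIGI and HERC6 had no match, and IFITM3 and RTP4 had one.

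The genes most like the members were sought among 7534 genes with an SD of at least 0.2 over the 12 arrays, by Pearson correlation with the mean of the centred members. IFIH1 was closest at r = 0.97 (rho 0.94), and HERC5 (0.93), SAMD9 (0.93) and RIGI (0.93) were also among the 10. SP110, a nuclear body protein gene outside the lists, had r = 0.93. The other five were CNTN1 (0.94), a neural adhesion molecule gene, ACTR3B (0.94), an actin-related protein gene, CDON (0.94), a hedgehog co-receptor gene, TRPS1 (0.94), a GATA-type repressor gene, and GPM6A (0.93), a membrane glycoprotein gene. CNTN1 illustrates the shared order: its group means were 5.78 with ERα(-) and 5.01 with ERα(+) in control cells, and 5.37 and 5.98 in shMOF cells. An r above 0.8 was found for 8 of the 36 companions that pass the same SD limit (22.2%) and for 200 of the 7534 genes (2.65%). The mean of the members holds the group differences on which they were chosen, and the lists were chosen with earlier results known, so nothing is read from that excess. All points share the same 12 arrays, and the first principal component runs through the same order.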

How the data were processed

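Total RNA of 12 samples of Ishikawa cells was hybridised to expression arrays. The deposited log2 values come from RMA, which the authors ran in Affymetrix Expression Console 1.4.1, per the submitters' processing notes. Build and annotation are not given in the sources used. RMA equalises arrays and can compress dim differences. Of 53617 probe sets, 16098 had 1 gene symbol in GEO's platform annotation, 0 had several and 37519 were unnamed. Of the genes, 779 had several probe sets, and the one with the highest mean stood for the gene, giving 14884 genes with no filter. Array medians lay between 4.53 and 4.59.

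A mean per labelled group was fitted with limma 3.58.1 in R 4.3.3 (8 residual degrees of freedom, two-sided, Benjamini-Hochberg over all genes, called below 0.05), and SEs come from that fit. The fit was tested on simulated data. Pairs of members were tested by exact permutation within groups. Coordinates and promoter windows are RefSeq's, GRCh38.p14, matched by symbol for 4 of 4 members.

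Members and gene lists were chosen with earlier results of these data known. Named genes are the members, their locus neighbours, up to 4 genes of each list with the smallest p and the 10 genes most correlated with the members. Alternatives were other probe set rules, normalizations, variance models, array weights, replicate or sample code terms, the first principal component, and each array left out.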

Additional observations from a re-analysis of the deposited data

Results flagged for a closer look

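Some genes had arrays that all moved one way in 1 setting and all the other way in the other, so that the groups did not overlap in either contrast. The difference between the 2 contrasts was not tested for the members, which were chosen on it, and no gene passed limma's test of the interaction over all genes. RSAD2 met this in both designs: shMOF minus control was -0.58 in ERα(-) and 0.92 in ERα(+), ERα(+) minus ERα(-) was -0.72 in control and 0.78 in shMOF arrays, and the difference of differences was 1.5. IFIT3 met it for the condition, at -0.78 in control and 0.64 in shMOF arrays, a difference of 1.42. The sensor gene RIGI met it for shMOF, at -0.51 in ERα(-) and 1.01 in ERα(+), a difference of 1.52. Among the genes most like the members, TRPS1 met it for shMOF (-0.47 and 0.84, a difference of 1.32), ACTR3B for the condition (-0.26 and 0.36, 0.61) and GPM6A for both (-0.34 and 0.44 for shMOF, -0.40 and 0.38 for the condition, 0.78). TRPS1, ACTR3B and GPM6A were picked by their correlation with the members, so a shared pattern is built in. Taken singly, 4.66% of all genes were lower without overlap for shMOF in ERα(-) and 12.2% higher in ERα(+). For the condition, 8.92% were lower in control and 3.80% higher in shMOF arrays. The share of all genes that met both at once was not counted, so nothing is read from these genes. The check of gaps between the arrays of a group was not run on groups of 3.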

How the results depend on the processing

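All 20 member differences kept their sign in each of the 20 alternatives, and 388 of 400 values moved by less than the spread between replicates. Many of these values could not move. Leaving out an array of a group not compared, the mean of probe sets and the replicate block left a member's difference unchanged. These counts are therefore no measure of robustness. With array quality weights, IFIT3 was at -0.71 for shMOF in ERα(-), IFIT1 and IFIT3 were at 0.87 and 0.85 for the condition in shMOF arrays, and the interaction was 1.66 for IFIT1, 1.78 for IFIT3 and 1.82 for RSAD2. With a covariate for the first principal component, shMOF in ERα(+) was 0.74 for IFIT1 and 1.16 for IFI44L, and the interaction was 0.86 for IFIT1, 1.18 for IFIT3, 1.64 for IFI44L and 1.18 for RSAD2. The cause was not tested.

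Array quality weights gave 645, 1629, 217, 1918 and 3258 calls over all genes for shMOF in ERα(-), shMOF in ERα(+), the condition in control, the condition in shMOF arrays and the interaction, and 6, 15, 5, 17 and 22 among the companions. Only the 2 groups compared gave 9 calls for the condition in control; this fit has no value for the interaction. Without the 2 arrays at the ends of the component, chosen after seeing the data, shMOF in ERα(+) and the interaction had 1 call each. Leaving out each array gave 0 to 5, 0 to 30, 0 to 4, 0 to 11 and 0 to 570 calls, the highest always without shMOF ERα(-) replicate 2. Among companions these ranges were 0 to 4 for shMOF in ERα(+), 0 to 1 for the condition in shMOF arrays and 0 to 8 for the interaction. The cause was not tested.

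Companion medians with array quality weights were -0.12, 0.21, 0.16 and 0.29 for shMOF in ERα(-), shMOF in ERα(+), the condition in shMOF arrays and the interaction. A filter on dim genes gave 0.26 for shMOF in ERα(+) and 0.42 for the interaction, where every named probe set gave 0.083. Leaving out each array gave 0.022 to 0.155 and 0.091 to 0.253 for these 2 comparisons.

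With the replicate number as a block (replicate block), the interaction had 2 calls and the other comparisons 0. Arrays of the same number correlated at -0.18 to 0.45 (median 0.05) in their deviations, and 3 of 12 matched their own number best, so the numbers were not taken as pairs. The 3 arrays per group limit the precision.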
